A study of Homo sapiens with 4 samples.

Results

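The promoters of 44 interferon-stimulated genes were examined for DNA methylation gained in HEK293 cells, a human embryonic kidney line, that carried a wild type EpiEditor directed to another gene of this class, ISG15. The 44 genes were taken by symbol from GENCODE release 44 lifted to hg19, and each promoter reached from 1000 bp before to 1000 bp after the start of the canonical transcript. ISG15 itself and the enzymes of its conjugation were left out. All 44 symbols were found among 19881 protein-coding genes with a canonical transcript.

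The cells had been transiently transfected with plasmids for dCas9-SunTag, for the antibody-fused DNMT3A-DNMT3L catalytic domains (Ab-3A3L, wild type) and for an sgRNA to the ISG15 CpG island, and were sorted after 3 days for cells that carried every plasmid. The DNA was sheared, pulled down with GST-MBD2, which binds methylated CpGs, and sequenced (MBD-seq). There was 1 library per condition, and the conditions with the DNMT3A mutants K844E and R887E were not analysed here. The authors' list of peaks that were new in the wild type cells against untreated cells is the only measurement used, so no difference could be set against replicates and no test was made. The list holds 12864 peaks with a smallest −log10 q of 2.002. Where the background was the genome-wide rate of 0.611 fragments, the weakest listed peak had 6 fragments.

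Interferons are secreted on viral infection and bind receptors whose JAK kinases phosphorylate STAT proteins, among them STAT2. STAT2 and IRF9 are subunits of the complex ISGF3, which binds the interferon-stimulated response element (ISRE) in the promoters of its target genes, while STAT dimers bind the gamma-activated site (GAS). The induced proteins sense viral RNA, degrade or edit it, block viral entry and replication, and present antigen. DNMT3A and DNMT3L together methylate CpGs, and dense methylation of a promoter is known to accompany silencing.

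The promoters differed first in sequence, and the IFIT genes on chromosome 10 show how. IFIT1, IFIT2 and IFIT3 had no new peak and IFIT5 had one, yet all 4 hold an ISRE core close to the start site. The core was searched as GAAANNGAAA on both strands and reads TTTCNNTTTC on the other strand. Below are 30 bases at the core nearest to the start site of these genes and of 4 further genes with a new peak over the core, on the strand of the transcript in hg19, with the core in capitals.
IFIT1: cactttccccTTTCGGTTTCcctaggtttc
IFIT2: cactttctagTTTCACTTTCccttttgtaa
IFIT3: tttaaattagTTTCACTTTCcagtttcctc
IFIT5: atttcttaagTTTCAGTTTCtgagcgctcg
EIF2AK2: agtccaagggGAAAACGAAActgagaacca
OAS3: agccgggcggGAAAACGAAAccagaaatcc
ADAR: ccgaggaaacGAAAGCGAAAttgaaccgga
DTX3L: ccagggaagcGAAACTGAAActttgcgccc
The stretch of IFIT1 lies at chr10:91152267-91152296 on the plus strand, that of IFIT2 at chr10:91061698-91061727 on the plus strand, that of IFIT3 at chr10:91087622-91087651 on the plus strand and that of IFIT5 at chr10:91174311-91174340 on the plus strand. The others lie at chr2:37384110-37384139 on the minus strand (EIF2AK2), chr12:113376257-113376286 on the plus strand (OAS3), chr1:154580655-154580684 on the minus strand (ADAR) and chr3:122283169-122283198 on the plus strand (DTX3L). Counted from the start site as 0, the cores begin at -103, -95, -122 and -4 in IFIT1, IFIT2, IFIT3 and IFIT5.

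CpGs are shown next. The 90 bases per gene lie upstream of the start site and outside annotated exons, with CpGs in capitals. The first 4 lie inside a new peak, and the last 4 belong to promoters without one.
IRF1: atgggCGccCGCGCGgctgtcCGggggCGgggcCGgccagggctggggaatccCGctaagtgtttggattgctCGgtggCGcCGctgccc
SAMHD1: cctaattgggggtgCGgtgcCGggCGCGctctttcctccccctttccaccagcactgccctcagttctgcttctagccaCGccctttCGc
EIF2AK2: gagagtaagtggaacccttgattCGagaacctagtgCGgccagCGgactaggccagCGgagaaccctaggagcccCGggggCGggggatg
CMPK2: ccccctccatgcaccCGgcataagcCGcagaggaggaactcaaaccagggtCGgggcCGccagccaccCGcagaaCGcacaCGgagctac
IFIT1: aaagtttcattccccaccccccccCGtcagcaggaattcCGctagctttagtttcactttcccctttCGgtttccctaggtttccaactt
IFIT2: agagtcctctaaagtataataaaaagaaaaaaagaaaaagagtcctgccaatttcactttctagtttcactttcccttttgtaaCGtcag
IFI6: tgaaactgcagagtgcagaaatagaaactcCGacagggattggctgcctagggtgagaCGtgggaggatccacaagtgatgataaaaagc
IFI44: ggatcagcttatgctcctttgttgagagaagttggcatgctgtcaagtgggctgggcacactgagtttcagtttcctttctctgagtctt
The stretch of IRF1 (chr5:131826470-131826559 on the minus strand) holds 11 CpGs, that of SAMHD1 (chr20:35580297-35580386 on the minus strand) and that of EIF2AK2 (chr2:37384336-37384425 on the minus strand) 6 each, and that of CMPK2 (chr2:7006177-7006266 on the minus strand) 7. The stretch of IFIT1 (chr10:91152213-91152302 on the plus strand) holds 3, that of IFI6 (chr1:27998724-27998813 on the minus strand) 2, that of IFIT2 (chr10:91061644-91061733 on the plus strand) 1 and that of IFI44 (chr1:79115391-79115480 on the plus strand) none.

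A new peak overlapped 12 of the 44 promoters, or 27.3%, against 42.1% of all coding promoters. Those 12 belong to IFIT5, OAS3, CMPK2, IRF1, EIF2AK2, IFIH1, ADAR, ZC3HAV1, SAMHD1, PARP9, DTX3L and PARP14. PARP9 and DTX3L share 1 peak, so that the peaks number 11. The promoters with a new peak held a median of 97 CpGs, with a range from 64 (IFIH1) to 163 (CMPK2). Those without one held a median of 35.5, from 8 (GBP1) to 132 (IRF7). Over all coding promoters the corresponding medians were 130 and 63, and the 44 promoters as a whole had a median of 49.5 CpGs against 96. The lower share among the 44 genes thus stands beside a lower CpG number. An MBD2 pulldown also recovers less from a promoter with few CpGs, and methylation already present in untreated cells would not give a new peak. Low methylation, low capture and earlier methylation cannot be told apart there.

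**Figure D1:**
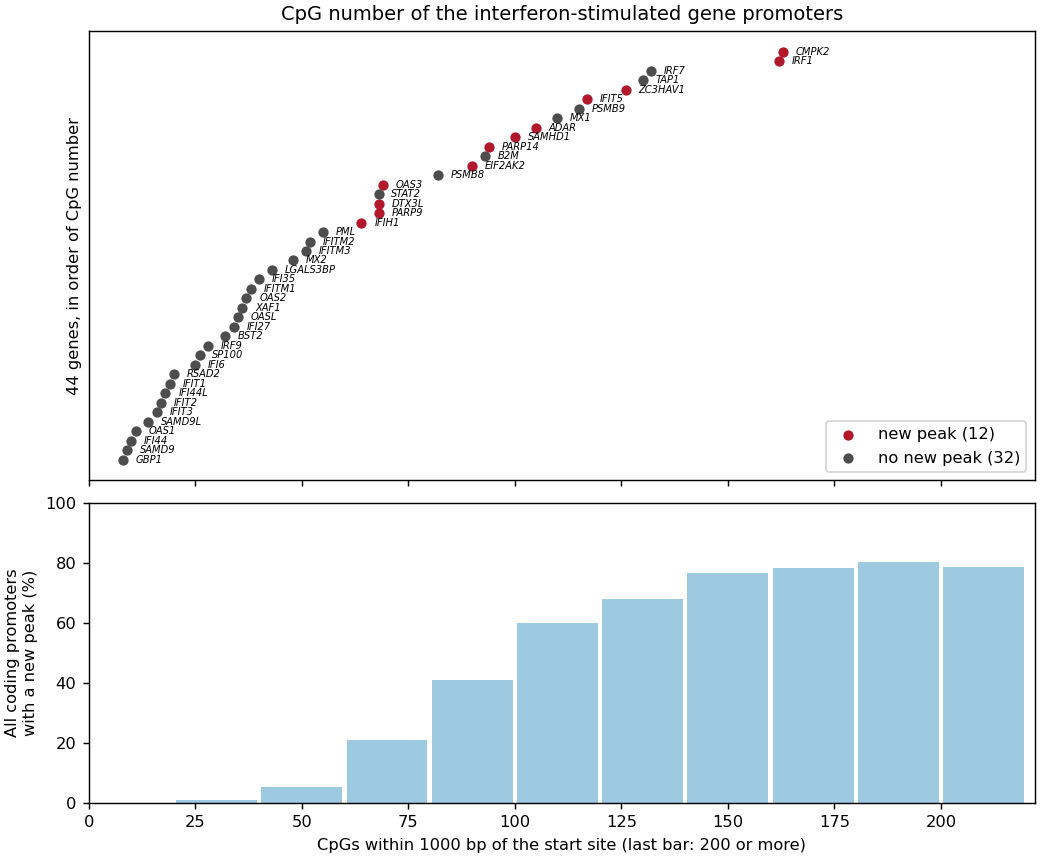
The upper panel gives each of the 44 promoters by the number of CpGs within 1000 bp of its start site, in order, in red with a new peak (12) and in grey without (32). The lower panel gives the share of all coding promoters with a new peak by the same CpG number. No member below 64 CpGs (IFIH1) is red.

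The promoters were then grouped by CpG class. A high-CpG promoter had a window of 500 bp with an observed/expected CpG ratio over 0.75 and a GC content over 55%, a low-CpG promoter had no window with a ratio over 0.48, and the others were intermediate. Of the 20 low-CpG promoters none had a new peak, beside 0.598% of all low-CpG promoters. In the high-CpG class 10 of 16 had one, or 62.5%, beside 60.3% of all such promoters. In the intermediate class it was 2 of 8, beside 8.93%, and these 2 are PARP9 and DTX3L with their shared peak. By CpG number, 0 of 22 members with under 50 CpGs had a new peak (background 0.976%), 6 of 12 with 50 to 99 (29.2%), 4 of 8 with 100 to under 150 (65.7%) and both with 150 or more (78.9%). The low-CpG and high-CpG classes therefore stood near the background. The members with 50 to 99 CpGs (50% beside 29.2%) and the intermediate class (25% beside 8.93%) stood above it. PARP9 and DTX3L, with 1 peak, count in both. The members with 100 to under 150 CpGs (50% beside 65.7%) stood below it. All of these are small counts.

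**Figure D2:**
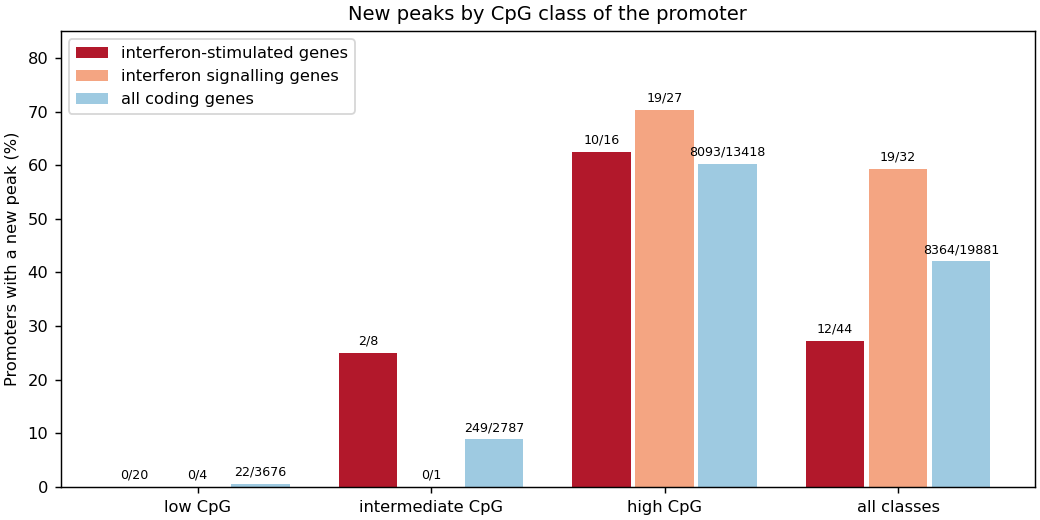
Bars give the share of promoters with a new peak, in percent, in each CpG class for the 44 interferon-stimulated genes, 32 interferon signalling genes and all coding genes, with the counts above them. In the high-CpG class the shares are 62.5%, 70.4% and 60.3%.

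EIF2AK2, IFIH1, ADAR and ZC3HAV1, whose proteins sense, edit or bind RNA, each had a new peak, with 64 to 126 CpGs, where the background is 29.2% (50 to 99 CpGs) and 65.7% (100 to under 150). The IFIT and OAS families also act on or sense RNA, and 1 of 4 promoters had a new peak in each, beside 42.1% of all coding promoters. EIF2AK2 encodes PKR, the kinase that halts translation on binding double-stranded RNA. Its peak at chr2:37383820-37384434 had a fold of 8.69 (95% Poisson interval 4.92 to 14.4, from 13 fragments over a background rate of 0.611), and the summit lies 155 bp upstream of the start site. All intervals given here cover counting error only. They are taken at the summit of a listed peak and make no allowance for that choice. IFIH1 encodes MDA5, a sensor of long double-stranded RNA. It had the fewest fragments, 9 at chr2:163174816-163175119, and a fold of 6.21 (3.18 to 11.2). That peak covers 26 of the 64 CpGs and begins 75 bp downstream of the start site, so that all 3 ISRE cores of the promoter lie outside it.

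ADAR encodes the enzyme that edits adenosine to inosine in double-stranded RNA. Its peak at chr1:154580320-154580882 had a fold of 10.6 (6.44 to 16.7, from 17 fragments) and a summit in the untranslated part of exon 1, 98 bp from the start site. ZC3HAV1 encodes ZAP, which binds CpG-rich viral RNA. The fold there was 8.90 (5.54 to 13.7, from 19 fragments), and the peak at chr7:138793127-138794245 runs from 221 to 1339 bp downstream. The intervals of these 4 genes overlap one another.

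The promoters of PARP9, its partner DTX3L and PARP14, with 68, 68 and 94 CpGs, had 2 separate new peaks between them, beside 29.2% of all promoters with 50 to 99 CpGs that carried one. PARP9 and DTX3L, a mono-ADP-ribosyltransferase and the ubiquitin ligase it pairs with, are read in opposite directions from start sites at 122283147 and 122283185 on chromosome 3. Their shared peak at chr3:122282992-122283614 had a fold of 13.0 (8.26 to 19.5, from 21 fragments), higher than 86.9% of peaks at coding promoters. It covers both start sites, the ISRE core that both promoters hold, and 52 of the 68 CpGs counted for each. PARP14 lies farther along the same chromosome. At chr3:122399794-122400180 it also had 21 fragments, but over a background rate of 4.74, which gave a fold of 3.83 (2.44 to 5.77). The shared peak and that of PARP14 thus had the same number of fragments at the summit and differed in the background rate. What set these rates was not tested.

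SAMHD1, a dNTP hydrolase that restricts retroviruses, had the highest fold of the 44 genes, 14.3 (9.18 to 21.3, from 22 fragments over a rate of 0.611). The peak at chr20:35579322-35580425 covers 87.0% of the CpGs of the promoter and has its summit in intron 1, and its fold exceeds that of 92.1% of peaks at coding promoters. The other 5 genes of the restriction and apoptosis group had none, all with under 50 CpGs, where the background is 0.976%. BST2 (tetherin, which holds budding virus at the cell surface) had 32 CpGs, XAF1 36, SAMD9L 14, SAMD9 9 and GBP1 8. For the neighbours SAMD9 and SAMD9L the nearest new peak was 282057 bp and 312463 bp away.

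Of the transcription factors only IRF1 carried a new peak, 1 of 4, beside 42.1% of all coding promoters. By CpG number the background is 78.9% for IRF1, 65.7% for IRF7, 29.2% for STAT2 and 0.976% for IRF9. At chr5:131825799-131826925 the fold was 11.2 (6.89 to 17.4, from 18 fragments), and the peak covers 138 of 162 CpGs around the start site. IRF7, the factor that amplifies interferon transcription, had 132 CpGs and no new peak within 40091 bp. STAT2, a subunit of ISGF3, had 68 CpGs and none within 44078 bp. IRF9, the DNA-binding subunit of ISGF3, is a low-CpG promoter with 28. IRF7 thus had a high CpG number and no listed peak, as had 2054 of the 5997 coding promoters with 100 to under 150 CpGs. Methylation already present in untreated cells would also leave no new peak, and was not tested.

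Neighbouring genes of 1 family were split in several places. In the IFIT family, whose proteins bind viral RNA, IFIT1, IFIT2 and IFIT3 had 19, 17 and 16 CpGs and no new peak. IFIT5 had 117 CpGs and a peak at chr10:91174162-91175209 with a fold of 11.7 (7.38 to 17.8, from 20 fragments), which covers 99 of them and all 3 ISRE cores. This peak is also the nearest to IFIT1, at 21782 bp. In the OAS family, OAS1, OAS2 and OAS3 encode enzymes that make the activator of RNase L. OAS3 with 69 CpGs had a peak at chr12:113376258-113376603 with a fold of 11.2 (6.89 to 17.4, from 18 fragments). Its neighbours OAS1 (11 CpGs) and OAS2 (37) had none, and neither had OASL (35), which lies farther along chromosome 12. The OAS3 peak is narrow, at 346 bp, and covers 31 CpGs.

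RSAD2 encodes viperin, an antiviral enzyme that acts on the nucleotide CTP, and CMPK2 beside it encodes a mitochondrial nucleotide kinase. RSAD2 had 20 CpGs and no new peak, and CMPK2 had 163 and a peak at chr2:7005378-7006414. The fold at CMPK2 was the lowest of the 12, 2.66 (1.71 to 3.97), with 22 fragments at the summit over a background rate of 7.63. What set the rate at CMPK2 was not tested. The −log10 q there was 2.71, just above the smallest of the list. Of the 9 annotated start sites of RSAD2 transcripts, 6 lie upstream, at -12220 to -11887 from the canonical one, and within reach of the CMPK2 peak.

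**Figure D3:**
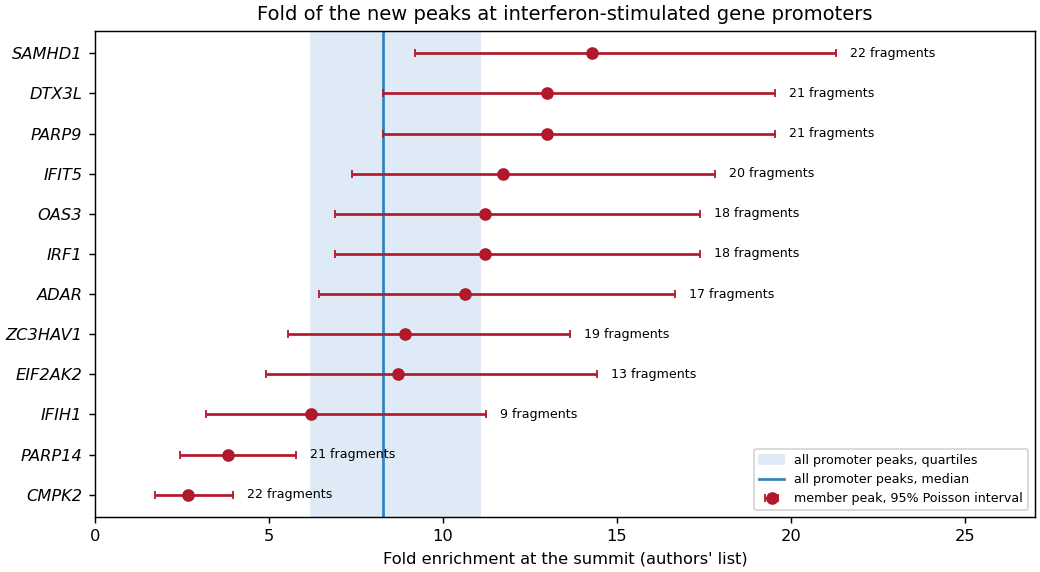
Points give the authors' fold enrichment at the summit for the 12 genes with a new peak (PARP9 and DTX3L share 1), with 95% Poisson intervals from the recovered number of fragments. The shaded band is the range between the quartiles of peaks at all coding promoters, 6.21 to 11.0, and the line their median of 8.26. CMPK2 and PARP14 lie below the band with their whole intervals.

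Several of the best known members had no new peak at all. The 5 IFI genes (IFI6, IFI27, IFI35, IFI44 and IFI44L) had 10 to 40 CpGs, and the background under 50 CpGs is 0.976%. The 3 IFITM genes, whose proteins block fusion of virus with the cell membrane, had 38 to 52, and LGALS3BP, a secreted glycoprotein, had 43. Of the MX GTPases, which trap viral nucleocapsids, MX2 had 48 CpGs and MX1 110. At MX1 the nearest peak, with a fold of 6.81 and 10 fragments, lies 5827 bp upstream at chr21:42792087-42792339. There 12 of the 34 annotated MX1 start sites, at -6219 to -4910 from the canonical one, have it within 1000 bp. For the nuclear body genes SP100 (26 CpGs) and PML (55), a peak lay 3972 bp and 2352 bp upstream of the start site. The latter is the closest that any of the 32 came, and their median distance was 41966 bp.

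None of the 4 antigen-processing genes had a new peak, and their promoters held 82 to 130 CpGs. By CpG number the background is 29.2% for PSMB8 and B2M (50 to 99) and 65.7% for PSMB9 and TAP1 (100 to under 150). B2M, the light chain of MHC class I, lies on chromosome 15 with 93 CpGs and had its nearest new peak 173907 bp away. PSMB8 and PSMB9 (immunoproteasome subunits) and TAP1 (a peptide transporter) lie in the major histocompatibility complex on chromosome 6. From 28.5 to 33.4 Mb, 3 of 83 high-CpG promoters had a new peak, or 3.61%, against 421 of 623, or 67.6%, on the rest of the chromosome. The list also holds 5 peaks on 5 alternative haplotype sequences of this region, so reads from it could be placed on more than 1 copy. The part of that in the missing peaks at PSMB8, PSMB9 and TAP1 was not tested. Without these 3 genes, 12 of 41 promoters had a new peak, or 29.3%, beside 42.4% of all coding promoters outside the region. In the high-CpG class it was 10 of 14, or 71.4%, beside 60.7% of all high-CpG promoters outside the region. The 4 without one are then STAT2, B2M, MX1 and IRF7. Methylation that was already present in untreated cells would not give a new peak either, and cannot be told apart from its absence in this list.

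The peaks of the 12 genes were set beside those of all 8364 coding promoters with a new peak. The median fold was 10.9 against 8.26, with a range from 2.66 to 14.3. The median number of fragments was 19.5 against 17, the median width 623 bp against 594 bp, and the median share of promoter CpGs inside the peak 71.01% against 54.8%. These medians count the peak that PARP9 and DTX3L share for both genes. Counted once, it left a median fold of 10.6, 19 fragments, a width of 623 bp and a CpG share of 65.6%. The summit lay downstream of the start site in 10 of 12, against 70.6%. In 9 of 12 the peak covered the start site, against 61.3%, and the 3 in which it did not are IFIH1, PARP14 and ZC3HAV1. With 11 separate peaks from 1 library, these values describe the peaks and no more.

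An ISRE core was found in 33 of the 44 promoters, or 75%, against 21.6% of all coding promoters. From 250 bp before to 50 bp after the start site it was 26 of 44, or 59.1%, against 3.29%. With 1 to 3 free bases between the boxes in place of 2, a looser match, it was 41 of 44 in the whole promoter, against 46.0% of all coding promoters. Overlapping cores were counted separately. Of the 12 promoters with a new peak 10 held a core, and of the 32 without one 23 did, where the shares over all coding promoters were 18.8% and 23.7%. The core occurred in 15 of the 20 low-CpG and in 12 of the 16 high-CpG promoters, the same 75% in both classes. It lay inside the new peak in 7 genes, namely IFIT5, OAS3, EIF2AK2, ADAR, PARP9, DTX3L and ZC3HAV1. In IFIH1, PARP14 and SAMHD1 the cores lay outside it, and IRF1 and CMPK2 held none. The GAS, searched as TTCNNNGAA, which reads the same on both strands, occurred in 22 of 44 promoters, or 50%, against 39.7%, and IRF1 held 2. Such matches are letters in the sequence and were not measured as binding.

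**Figure D4:**
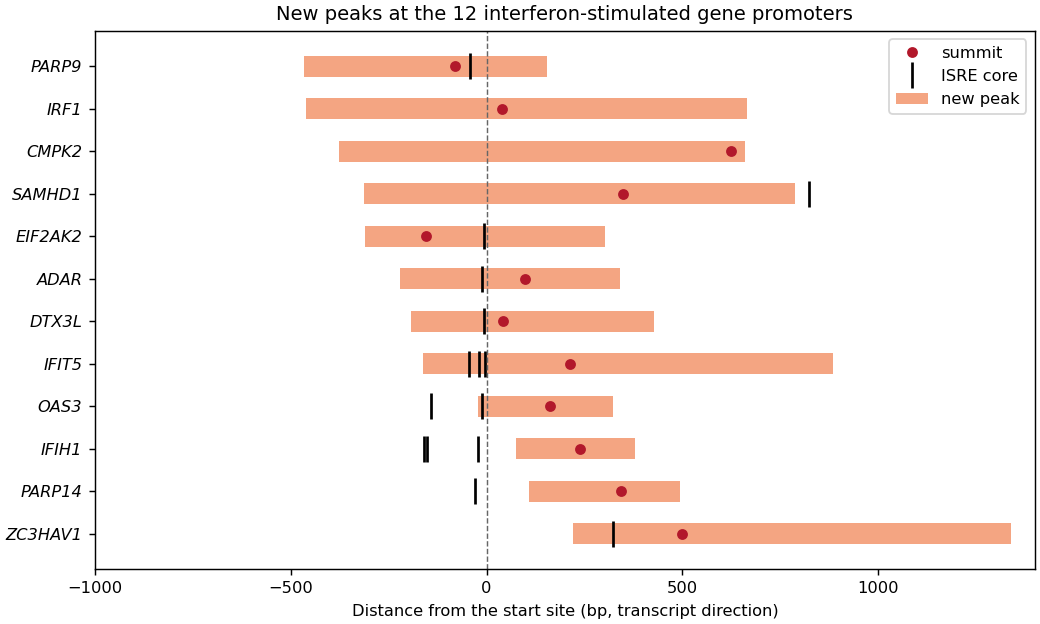
Bars give the extent of the new peak at each of the 12 promoters in bp from the start site (0, dashed line) in the direction of transcription, dots the summits and ticks the starts of ISRE cores within 1000 bp. The peaks of IFIH1, PARP14 and ZC3HAV1 begin 75, 108 and 221 bp downstream of the start site, and the other 9 cover it.

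Other genes of the pathway, which detect virus, carry the interferon signal or damp it, were examined in the same way. Some of them, such as RIGI, are themselves induced by interferon. Of 32 such promoters 19 had a new peak, or 59.4%, against the background of 42.1%. Their median CpG number was 121, and 27 of the 32 were high-CpG promoters, of which 19 had a peak, or 70.4% beside 60.3%. The receptor genes IFNAR1, IFNAR2, IFNGR2 and IFNLR1, the kinase genes JAK1, JAK2 and TBK1 and the factor genes STAT3, IRF2, IRF5 and IRF8 were among them, as were RIGI, MAVS, TICAM1, SOCS1, SOCS3, PIAS1 and PTPN11. With the highest fold taken per promoter, the 3 highest were at IRF2, a repressor that competes with IRF1 (14.3, 22 fragments), STAT3 (13.4, 23 fragments) and IFNLR1, a subunit of the receptor for interferon lambda (13.1, 22 fragments). The IRF2 peak with that fold runs from 939 to 1837 bp downstream with its summit at 1590 bp, outside the promoter. The other peak of IRF2, 17 bp from the start site, had a fold of 13.0, which is below those of STAT3 and IFNLR1. The high-CpG promoters of IFNGR1, IL10RB, TYK2, IRF3, IRF4, CGAS and TRAF3 had none, and TRAF3 had the most CpGs of the 32, 281. At IRF3, however, a new peak with a fold of 5.48 and 17 fragments lay 1047 bp downstream of the start site, just outside the promoter. Of the 26 annotated IRF3 start sites, 16 had a new peak within 1000 bp.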

How the data were processed

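Reads of 4 MBD-seq libraries were mapped by the authors to hg19 with Bowtie2, and MACS2 is named in the submitters' processing notes with no version or settings. For the wild type library the authors deposited the peaks that were new against untreated cells, with a score (10 times the −log10 q, not used), a fold, and −log10 values of p and q as deposited columns. Start sites came from GENCODE release 44 lifted to GRCh37, the same build as hg19, and 282 coding genes with no canonical transcript there were left out. The −log10 values and folds are the authors' own. Fragment numbers at summits, with their background rates, were obtained by solving the fold as (fragments + 1)/(rate + 1) and the p-value as a Poisson tail, which met every listed value within 0.000403. An overlap of 1 bp counted, and for promoters with several peaks the highest fold was used. All 44 genes are accounted for, and of the signalling genes those with a peak and the 3 highest folds are named, except that some genes counted there are not reported by name here. The members and the lists were chosen with earlier results of these data known. Steps were tested on simulated data. Python 3.11.15, numpy 2.4.6, pandas 2.3.3, scipy 1.17.1 and matplotlib 3.10.9 were used.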

Additional observations from a re-analysis of the deposited data

How the results depend on the processing

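Of 25 alternatives, 22 stayed within 1.5 times the reported value. When peaks under the list's median fold (7.45) were dropped, the interferon signalling promoters with a new peak fell to 10, and with a −log10 q of at least 10 to 12. Both keep fewer peaks by construction, and leave 25.9% and 24.9% of all coding promoters with one. The interferon-stimulated promoters were 9 in both, without CMPK2, IFIH1 and PARP14. Counted in 500 bp on either side, the median CpG number of interferon-stimulated promoters without a new peak was 21, in a shorter window. With the start sites of all transcripts, MX1 and RSAD2 joined, for 14. Among the interferon signalling promoters IRF3 joined with that setting, for 20, beside 45.5% of all coding promoters. It also joined with 2000 bp on either side, for 20, beside 43.2%. Leaving out the 3 genes of the histocompatibility region was added after the data had been seen. No paired analysis was possible because there was 1 library per condition, and the list gives no signal value for a promoter without a listed peak.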
